A study of Mus musculus with 6 samples.

Results

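Lymphatic endothelial cells line the lymphatic vessels of the mammary fat pad, and 6 genes by which they are commonly recognised were followed here: Lyve1, Prox1, Flt4, Pdpn, Reln and Mmrn1. They were taken as every probe set whose symbol in the authors' deposited table was one of these names, or Xlkd1 as the older name of Lyve1. This gave 12 probe sets of the 45037 tested, and 6 genes of the 20519 named by a probe set with 1 symbol. Lyve1, Pdpn, Reln and Mmrn1 had 2 probe sets each, Prox1 had 3 and Flt4 had 1. The rule rests on gene names alone.

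Expression was measured in total RNA of mammary fat pads, the stroma of the gland, labelled as cleared and taken from mice 4 weeks old. Rarb -/- mice (called Rarb-null, 3 arrays) were compared with Rarb +/+ littermates (called wild type, 3 arrays). Rarb encodes retinoic acid receptor beta, a nuclear receptor. The sample descriptions of both genotypes also connect the mice with ErbB2, without saying whether a transgene was carried. How many mice an array represents, their strain and the array design are not stated in the sources read, and p-values therefore reflect only the spread among these 6 arrays. In each set of 3 values the replicates follow in the order 1, 2, 3. A level is the deposited RMA value of a probe set on the log2 scale, where 1 unit is a 2-fold difference in signal. Differences are Rarb-null minus wild type, and errors beside means are SD over 3 arrays.

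Lymphatic vessels drain fluid and carry immune cells from a tissue to its lymph nodes. Their endothelium arises mainly from veins when the homeobox factor Prox1 is switched on, and it grows in response to the ligands VEGF-C and VEGF-D acting on the receptor encoded by Flt4. None of the 6 genes marks lymphatic endothelium alone in a whole tissue: Lyve1 is also made by some tissue macrophages, Pdpn by fibroblasts and some epithelia, Reln by neurons, and Mmrn1 by platelets and their precursors.

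None of the 6 genes differed between Rarb-null and wild-type fat pads by more than the spread between arrays. Of the 12, 0 had an adjusted p under 0.05 (limma, Benjamini-Hochberg adjustment over all 45037), where 0% of all probe sets passed, and 0 reached an unadjusted p under 0.05, where 5.22% of all did (2.34% with a higher and 2.88% with a lower Rarb-null mean). The groups overlapped at all 12, while they did not overlap at 10.4% of all probe sets. Adjusted p ran from 0.932 to 0.998. The difference was above 0 at 6 probe sets and below 0 at 6, with a median of 0.00024 log2, against -0.00019 log2 over all probe sets. Taking the brightest probe set of each gene instead, 5 genes were higher and 1 was lower in the Rarb-null group, and the median was 0.15 log2 against -0.01 log2 over all genes. That median was 0.013 log2 without wild-type replicate 1, 0.054 log2 without Rarb-null replicate 3 and 0.24 log2 without Rarb-null replicate 2. Averaging the probe sets of each gene gave 4 higher and 2 lower, with a median of 0.052 log2. In a bulk tissue, fewer cells of a type and less RNA per cell cannot be told apart.

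**Figure D1:**
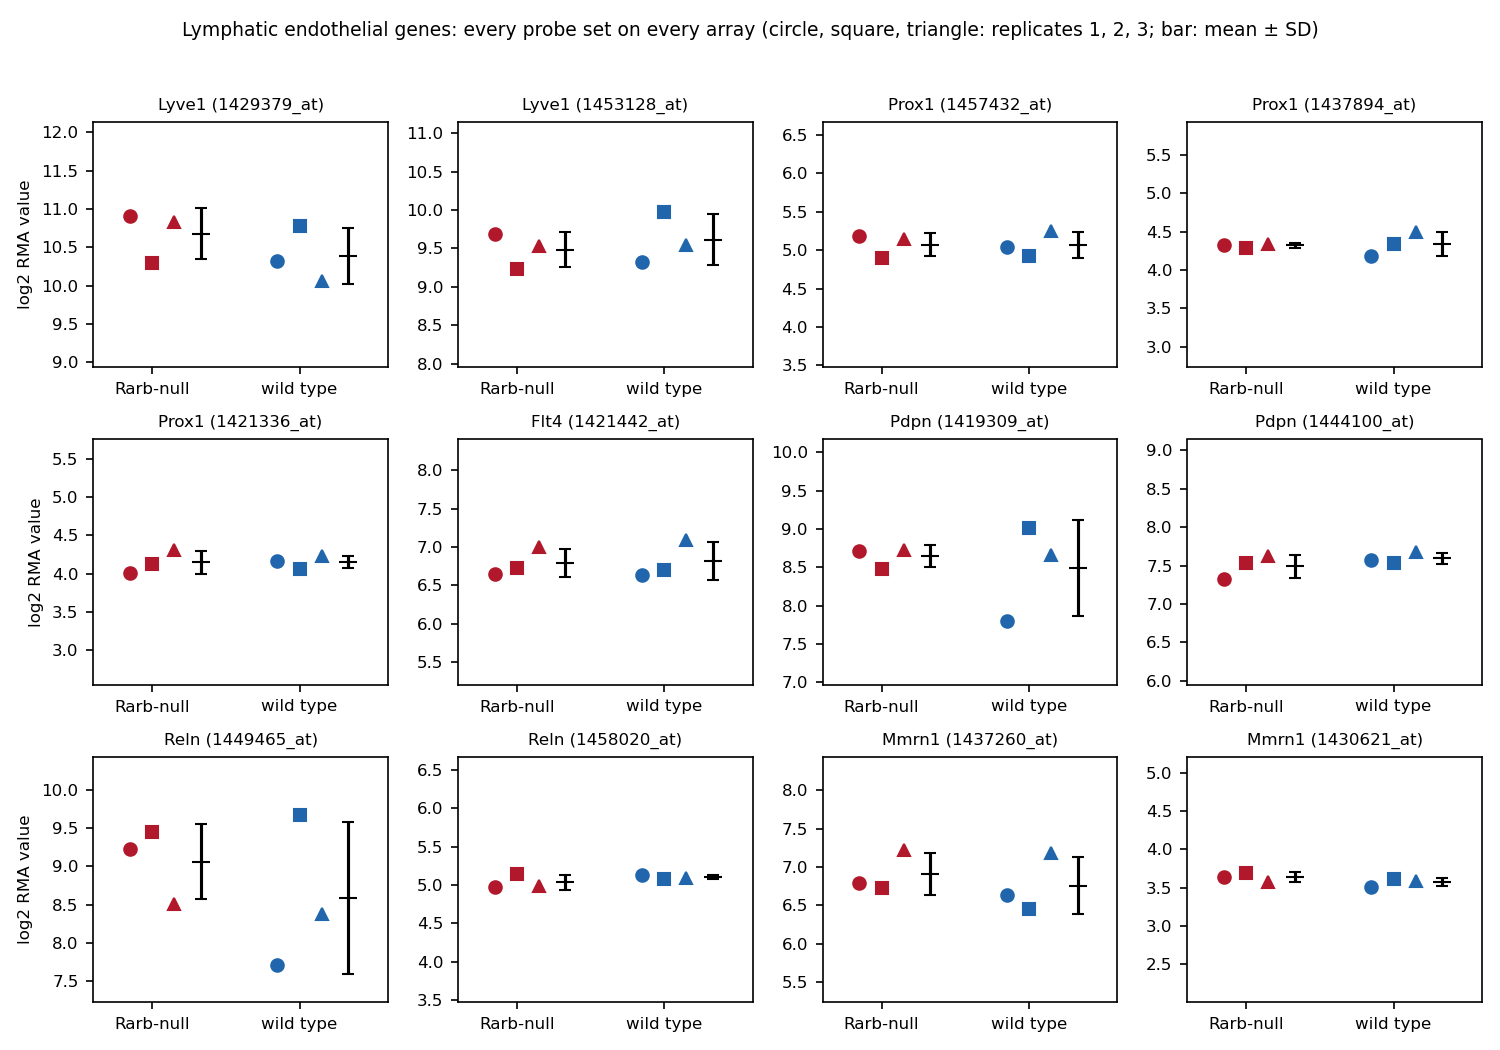
Level of each of the 12 probe sets (y axis, log2 RMA value, every panel spanning the same 3.2 log2 units) on the 3 Rarb-null (red) and 3 wild-type (blue) arrays, with the mean and SD of each group as a black bar. Reln (1449465_at) and Pdpn (1419309_at) spread over 1.95 and 1.21 log2 units, and the groups overlap in every panel.

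The deleted gene itself was not lower in the group labelled as null. The probe set of Rarb had Rarb-null values of 6.50, 6.61 and 7.41 against wild-type values of 6.95, 6.01 and 6.65, a difference of 0.30 log2 (adjusted p = 0.951 in limma). It was 0.018 log2 without Rarb-null replicate 3, 0.040 log2 without wild-type replicate 2, and up to 0.51 log2 with another array left out. Whether its probes match the exons removed in the mutant is not stated, so it does not check the labels. The fat pads are labelled as cleared, a term for removal of the epithelium, yet the epithelial adhesion gene Epcam averaged 13.41 ± 0.09 in Rarb-null against 13.06 ± 0.48 in wild-type fat pads, brighter than 99.1% of probe sets. Rarb-null replicates 1 and 2 and wild-type replicate 2 stood apart in cell cycle genes: the mean of 11 such genes lay 1.31 to 1.39 log2 above the mean of the 6 arrays there and stood at -1.59 to -1.17 log2 on the other 3 arrays. Dim probe sets (16670 with a mean under 6) read slightly higher on Rarb-null replicate 3 and wild-type replicate 3, with medians of 0.06 and 0.08 log2 above their 6-array mean, against -0.05 to -0.03 log2 on the other 4 arrays.

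The promoters of 5 of the 6 genes were read from RefSeq (assembly GRCm38.p6), as the 250 bases before the annotated start; Lyve1 was not in that table. They are shown because the deleted receptor belongs to a family that binds DNA at short half-sites. The spellings searched, on both strands, were the half-site AGGTCA, the variant GGGTCA, the variant AGTTCA and the variant GGTTCA. Such a word occurred in 2 of the 6 windows of these genes (Prox1 has 2 windows) and in 38.6% of 32851 windows of all genes. The SOX factor word AACAAT was searched because the SOX factor Sox18 acts upstream of Prox1 in the mouse, and it occurred in 1 of the 6 windows and in 9.42% of all windows. The words of these searches do not overlap in the windows below, where capitals mark each match. Pdpn (chr4:143299565-143299814, minus strand) had AGGTCA, beginning 34 bases before the start, and Flt4 (chr11:49609429-49609678, plus strand) had the reverse complement of GGGTCA, beginning 62 bases before it. Mmrn1 (chr6:60944067-60944316, plus strand) had only the SOX word, beginning 231 bases before its start. Reln (chr5:22344706-22344955, minus strand), whose signal differed most between arrays, had neither word, and 80.0% of its window was G or C, against a median of 52.4% over all windows.
Pdpn: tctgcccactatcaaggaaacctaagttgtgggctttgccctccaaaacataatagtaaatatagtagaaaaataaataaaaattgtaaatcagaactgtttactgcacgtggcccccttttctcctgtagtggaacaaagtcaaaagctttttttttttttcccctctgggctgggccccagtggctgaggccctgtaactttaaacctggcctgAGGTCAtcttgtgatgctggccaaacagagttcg
Flt4: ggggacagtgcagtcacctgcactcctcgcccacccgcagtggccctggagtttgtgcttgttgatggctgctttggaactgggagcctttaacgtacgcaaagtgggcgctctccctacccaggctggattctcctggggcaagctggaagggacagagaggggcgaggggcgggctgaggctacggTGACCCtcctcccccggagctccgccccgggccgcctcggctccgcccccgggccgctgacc
Mmrn1: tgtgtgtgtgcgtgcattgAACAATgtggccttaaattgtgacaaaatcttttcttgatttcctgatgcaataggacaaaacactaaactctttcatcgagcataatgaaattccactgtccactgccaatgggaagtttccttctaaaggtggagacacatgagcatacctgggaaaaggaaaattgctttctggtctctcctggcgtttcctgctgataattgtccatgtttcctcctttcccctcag
Reln: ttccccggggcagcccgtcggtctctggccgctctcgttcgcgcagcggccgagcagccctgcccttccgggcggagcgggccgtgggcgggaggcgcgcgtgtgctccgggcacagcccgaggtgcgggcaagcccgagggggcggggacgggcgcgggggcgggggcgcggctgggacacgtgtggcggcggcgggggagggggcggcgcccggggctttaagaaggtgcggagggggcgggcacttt

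Prox1, the transcription factor that sets and keeps lymphatic identity, gave little signal on any array. Its probe set 1457432_at had Rarb-null values of 5.18, 4.90 and 5.14 against wild-type values of 5.04, 4.92 and 5.25. The other probe sets, 1437894_at and 1421336_at, lay between 4.18 and 4.50 and between 4.02 and 4.31. Their means over the 6 arrays were brighter than 21.6%, 8.61% and 5.62% of all probe sets. These percentiles describe the brightness of the probe sets, which also depends on their sequences, and the files carry no detection calls. The 3 differences were 0.0039, -0.020 and -0.0034 log2, with 95% intervals within -0.31 to 0.32 log2, and adjusted p was 0.994 or more in limma. At this brightness RMA compresses differences, so these intervals do not bound the difference in transcript.

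Flt4, the receptor tyrosine kinase VEGFR-3 for VEGF-C and VEGF-D, had Rarb-null values of 6.65, 6.72 and 6.99 against wild-type values of 6.64, 6.70 and 7.09. In both genotypes replicate 3 was highest, and replicates 1 and 2 differed by less than 0.1 log2, so the groups overlapped. The group means were 6.79 ± 0.18 and 6.81 ± 0.25, a difference of -0.022 log2 (95% interval -0.40 to 0.36 log2; adjusted p = 0.995 in limma). The 2252 probe sets of similar brightness had medians of 0.05 and 0.07 log2 above their 6-array mean on the replicates numbered 3, where Flt4 lay 0.19 and 0.29 log2 above its own. The part of this shift in Flt4 was not tested.

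Mmrn1, which encodes the large adhesive protein multimerin 1, was likewise highest on the replicates numbered 3 at its brighter probe set. Probe set 1437260_at had Rarb-null values of 6.79, 6.73 and 7.22 against wild-type values of 6.64, 6.46 and 7.18. The order of replicates 1 and 2 was the reverse of that of Flt4 in both genotypes, and the groups overlapped. The difference of means was 0.15 log2, and its 95% interval ran from -0.36 to 0.67 log2 (adjusted p = 0.968 in limma). Its other probe set, 1430621_at, lay between 3.51 and 3.70 on all arrays, brighter than 0.132% of probe sets, and differed by 0.07 log2.

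Lyve1, a membrane receptor for the matrix sugar hyaluronan, was the member whose 2 probe sets were both bright, and they disagreed in sign. Probe set 1429379_at had Rarb-null values of 10.91, 10.30 and 10.83 against wild-type values of 10.32, 10.79 and 10.06. Rarb-null replicates 1 and 3 and wild-type replicate 2 were high, and each group held high and low arrays. The means were 10.68 ± 0.33 and 10.39 ± 0.37, 1.22-fold apart, with a difference of 0.29 log2, a 95% interval from -0.26 to 0.84 log2 and an adjusted p of 0.932 in limma. Probe set 1453128_at read 9.69, 9.23 and 9.53 against 9.33, 9.98 and 9.54, a difference of -0.13 log2 (interval -0.60 to 0.33 log2; adjusted p = 0.968). The probe sets differed most on wild-type replicate 3, the lowest of 6 arrays at the first and the third highest at the second. Averaged over both, the difference was 0.08 ± 0.20 log2 (standard error; adjusted p = 0.998 in limma).

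Pdpn encodes podoplanin, a mucin-like membrane glycoprotein that binds the platelet receptor CLEC-2. Its brighter probe set, 1419309_at, had Rarb-null values of 8.72, 8.48 and 8.73 against wild-type values of 7.80, 9.01 and 8.66. The wild-type group held both the lowest and the highest array, with an SD of 0.62 against 0.14 in the Rarb-null group. The difference was 0.15 log2, and its 95% interval ran from -0.53 to 0.84 log2 (adjusted p = 0.973 in limma), and without wild-type replicate 1 it was -0.19 log2. Probe set 1444100_at read 7.33, 7.53 and 7.62 against 7.58, 7.53 and 7.68, and wild-type replicate 1 was not low there. Its difference was -0.10 log2, and its interval ran from -0.38 to 0.17 log2 (adjusted p = 0.957).

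Reln encodes reelin, a large secreted glycoprotein best known from brain development, which lymphatic endothelium also releases. Its probe set 1449465_at varied more within groups than any other of the 12, with a pooled SD of 0.78 log2 that exceeded 98.6% of probe sets. It had Rarb-null values of 9.22, 9.45 and 8.52 against wild-type values of 7.72, 9.67 and 8.38. High arrays and low arrays occurred in both genotypes: Rarb-null replicates 1 and 2 and wild-type replicate 2 lay above 9, and the other 3 below 8.6. The means were 9.06 ± 0.49 and 8.59 ± 0.99, and the difference of 0.47 log2 had a 95% interval from -0.67 to 1.62 log2 (adjusted p = 0.951 in limma). The difference was 1.01 log2 once wild-type replicate 2 was left out, with an unadjusted p of 0.0174 (adjusted p = 0.399). Leaving out wild-type replicate 1 instead gave 0.038 log2. The second probe set of Reln, 1458020_at, was dim and even, between 4.97 and 5.14 on all arrays.

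The 95% interval of the difference lay within 2-fold either way at 11 of the 12 probe sets, against 93.2% of all probe sets; Reln (1449465_at) was the exception. It lay within 1.5-fold at 7 of them, against 71.5% of all probe sets. Those 7 were the 3 of Prox1, the 1 of Flt4 and the dimmer ones of Pdpn, Reln and Mmrn1. No allowance was made in these intervals for multiple testing. The 3 of Prox1 and the dimmer ones of Reln and Mmrn1 averaged under 6. At such brightness RMA compresses differences, so their intervals do not bound the difference in transcript. In the authors' deposited table the p-values of the 12 probe sets ran from 0.266, at Lyve1 (1429379_at), to 0.979, at Prox1 (1457432_at).

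**Figure D2:**
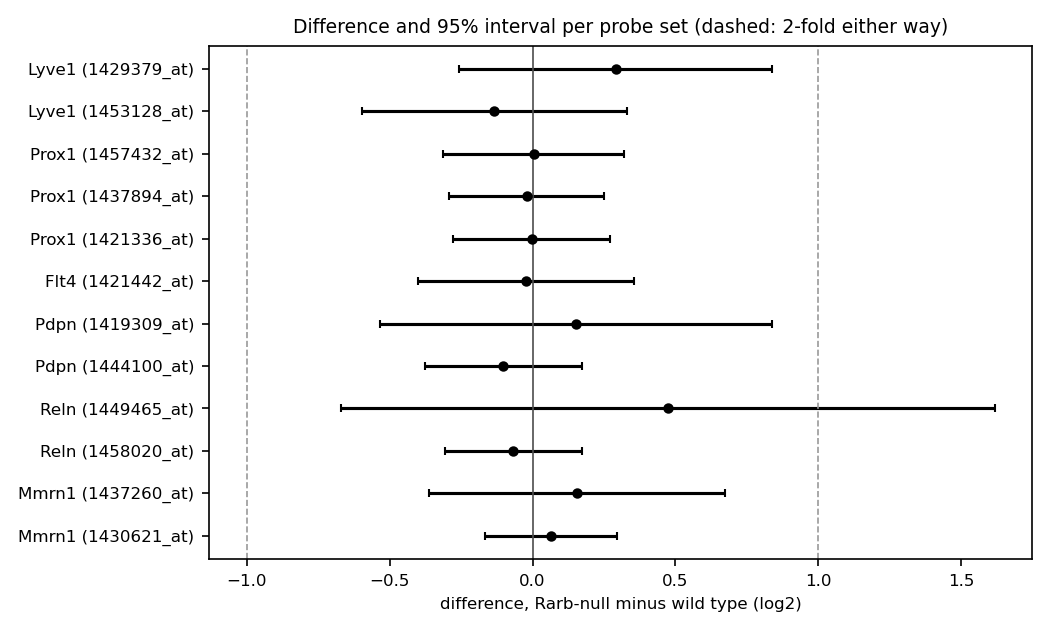
Difference of group means, Rarb-null minus wild type (x axis, log2), for each of the 12 probe sets, with the 95% interval from limma as a bar; dashed lines mark 2-fold either way. All intervals include 0, and the interval of Reln (1449465_at) alone crosses a dashed line, reaching 1.62 log2.

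The brighter probe sets of the 6 genes did not share one order of arrays. Flt4 and Mmrn1 were high on the replicates numbered 3, Reln on Rarb-null replicates 1 and 2 and wild-type replicate 2, and Lyve1 on Rarb-null replicates 1 and 3 and wild-type replicate 2. Lists of marker genes for other cell types were set beside them, each as the mean of its genes after centring every gene on its 6-array mean. Reln was high on the same 3 arrays as the mammary epithelium list (0.29, 0.33 and 0.50 log2 there, -0.78 to -0.12 log2 elsewhere) and the cell cycle list given above. The 3 highest arrays of the fibroblast list were those arrays as well, at 0.12, 0.16 and 0.20 log2 (-0.28 to 0.03 log2 elsewhere). Lyve1 (1429379_at) was high on the 3 highest arrays of the macrophage list, which stood at 0.02, 0.06 and 0.24 log2 (-0.17 to -0.05 log2 elsewhere). The 3 highest arrays of the other Lyve1 probe set, 1453128_at, were instead wild-type replicate 2, Rarb-null replicate 1 and wild-type replicate 3. These were also the 3 highest of the lymph node list (0.15, 0.13 and 0.09 log2, with -0.21 to -0.04 log2 elsewhere). On wild-type replicate 3, however, this probe set was not above its own 6-array mean (-0.0066 log2), and Rarb-null replicate 3 was close at -0.019 log2. Pdpn (1419309_at) was lowest on wild-type replicate 1 and highest on wild-type replicate 2, as were the fibroblast and macrophage lists. The blood endothelium list ran otherwise: it was lowest on wild-type replicate 2 at -0.28 log2 and highest on wild-type replicate 3 at 0.16 log2. The part of these cell types in the values of the 6 genes was not tested.

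**Figure D3:**
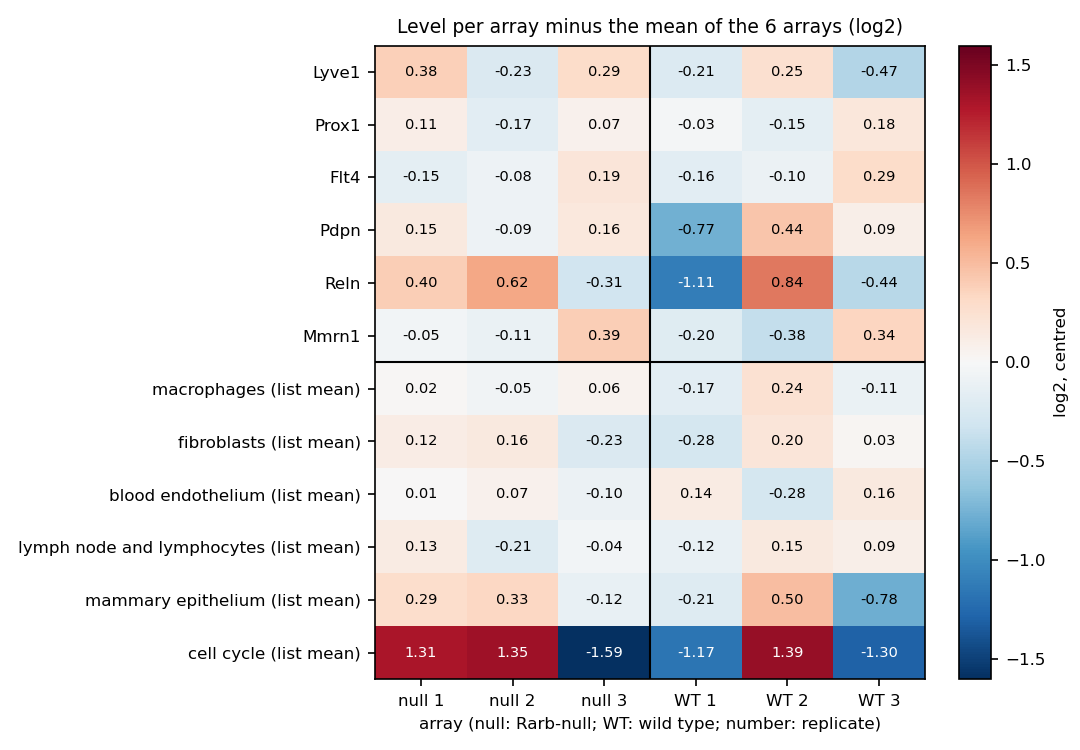
Level on each array minus the mean of the 6 arrays (colour and printed number, log2) for the brightest probe set of each of the 6 genes (upper block) and for the mean of 6 marker lists (lower block); columns are the 3 Rarb-null and 3 wild-type arrays. Reln is above 0 on the same 3 arrays as the cell cycle and mammary epithelium lists, while Flt4 and Mmrn1 are highest on the arrays numbered 3.

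None of these marker lists had a gene past the threshold between genotypes. By brightest probe set, the Rarb-null mean was higher for 4 of 12 blood endothelium genes, 5 of 10 macrophage genes, 7 of 9 fibroblast genes, 4 of 12 lymph node and lymphocyte genes, 7 of 8 mammary epithelium genes, 11 of 11 cell cycle genes, 0 of 8 adipocyte genes, 0 of 7 smooth muscle and pericyte genes and 1 of 6 skeletal muscle genes; over all genes it was higher for 47.1%. Summed as list means, blood endothelium ran from -0.10 to 0.07 log2 over Rarb-null arrays and from -0.28 to 0.16 log2 over the wild type, and macrophages from -0.05 to 0.06 and from -0.17 to 0.24 log2. The lymph node list ran from -0.21 to 0.13 and from -0.12 to 0.15 log2. Smooth muscle and pericytes ran from -0.37 to 0.04 and from 0.12 to 0.13 log2, without overlap. The adipocyte list ran from -0.22 to -0.03 and from -0.33 to 0.34 log2. Cell cycle genes ran from -1.59 to 1.35 and from -1.30 to 1.39 log2. The list means were not tested. Plvap, a diaphragm protein gene of blood capillaries, averaged 10.37 ± 0.26 in Rarb-null against 10.88 ± 0.19 in wild-type fat pads, without overlap (adjusted p = 0.908 in limma).

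The ligands of Flt4 both had lower Rarb-null means, without passing the test. Vegfc had Rarb-null values of 8.43, 8.58 and 7.92 against wild-type values of 8.63, 8.65 and 8.66. All Rarb-null arrays lay below all wild-type arrays, with Rarb-null replicate 3 farthest below, and the difference was -0.34 log2 (95% interval -0.75 to 0.08 log2; adjusted p = 0.908 in limma), or -0.14 log2 without Rarb-null replicate 3. Both further Vegfc probe sets were also lower in Rarb-null arrays. Vegfd, at its 1 probe set, read 8.56, 8.64 and 8.48 against 8.72, 8.91 and 8.78, again without overlap, a difference of -0.24 log2 (interval -0.49 to 0.01 log2; adjusted p = 0.908). Nrp2, a co-receptor of Flt4, differed by 0.05 log2 (interval -0.29 to 0.39 log2; adjusted p = 0.985).

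A pair of genes of angiopoietin signalling, which acts on blood and lymphatic vessels alike, had higher Rarb-null means. Angpt1, the ligand gene, had Rarb-null values of 9.16, 9.17 and 9.75 against wild-type values of 9.12, 8.76 and 8.41, which is 1.51-fold and 0.60 log2 (95% interval 0.06 to 1.14 log2; unadjusted p = 0.0347, adjusted p = 0.908 in limma). Its groups did not overlap, though its lowest Rarb-null and highest wild-type arrays were close, and the 3 other Angpt1 probe sets were also higher. Tek, the gene of its receptor, read 11.15, 11.23 and 11.10 against 10.55, 11.10 and 10.83, a difference of 0.34 log2 (interval -0.02 to 0.69 log2; adjusted p = 0.908); its groups did not overlap but nearly met. Tek was 0.20 log2 without wild-type replicate 1 and also over all its probe sets, and Angpt1 was 0.38 log2 over all of its own. Angpt1 was 0.40 log2 without Rarb-null replicate 3, 0.42 log2 without wild-type replicate 3 and up to 0.77 log2 with another array left out. Its unadjusted p in these limma fits ran from 0.0136 to 0.115. Tie1, a related orphan receptor gene, differed by -0.35 log2 with overlapping groups. It was -0.20 log2 without wild-type replicate 3 and -0.21 log2 without Rarb-null replicate 3. Angpt2, another ligand gene of Tek, differed by 0.0058 log2 (95% interval -0.27 to 0.28 log2, adjusted p = 0.997 in limma). Of its 2 other probe sets, 1 was also higher.

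Across 7 lists of other lymphatic genes, grouped by role, 56 of 60 genes had a probe set naming 1 symbol, and 0 passed the threshold, as did 0% of the 20519 genes. The Rarb-null mean was higher for 28 and lower for 28, and the median difference was 0.0027 log2. At an unadjusted p under 0.05 there were 3, all higher, where 5.3% of all genes were reached (1.9% with a higher and 3.41% with a lower mean). The groups did not overlap for 8 of the 56, against 10.6% of all genes. Besides the 4 described above these were Gja1, Fat4, Ephb4 and Ccr7.

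**Figure D4:**
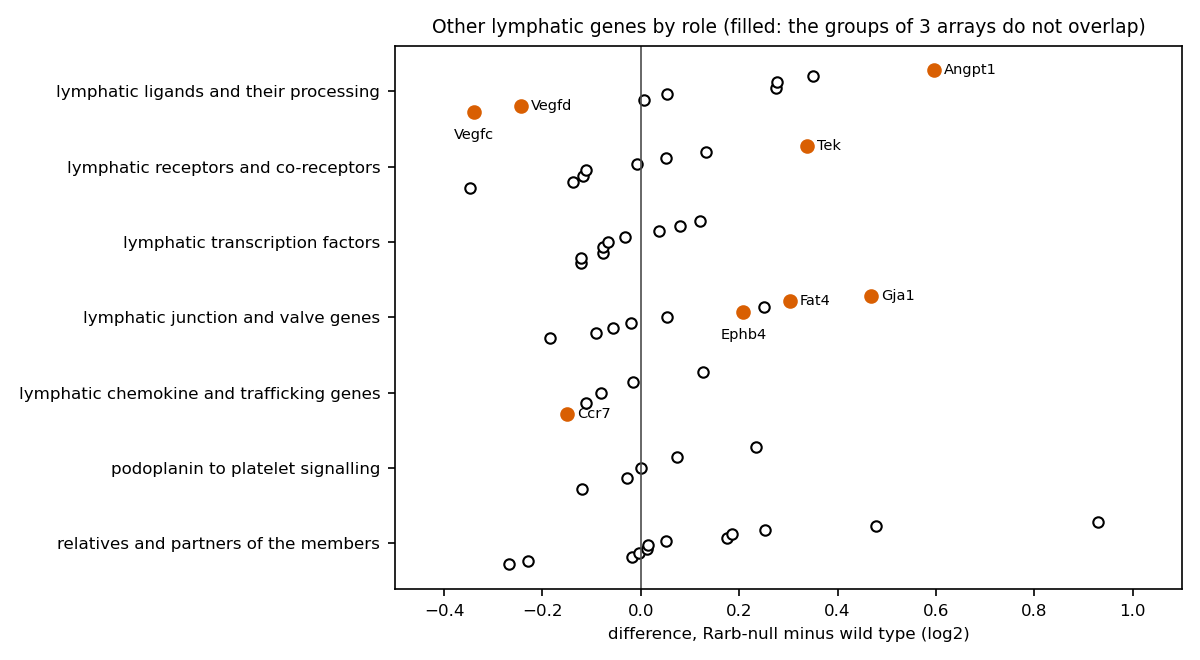
Difference of group means, Rarb-null minus wild type (x axis, log2), for the brightest probe set of each of the measured genes in 7 lists of other lymphatic genes; filled points with names are the 8 genes whose groups of 3 arrays do not overlap. Points lie on both sides of 0, from -0.35 to 0.93 log2, and none passed the adjusted threshold.

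Among transcription factors of lymphatic development, 3 of 9 genes had a higher and 6 a lower Rarb-null mean, and all differences lay between -0.12 and 0.12 log2. Sox18 and Nr2f2, which switch on Prox1 in mouse veins, differed by 0.12 log2 (95% interval -0.22 to 0.47 log2) and -0.08 log2 (-0.66 to 0.51 log2). Foxc2, a factor of lymphatic valves, was dim at 5.07 ± 0.12 against 5.19 ± 0.22. Junction and valve genes were split 5 to 4. Gja1, the connexin 43 gene, had Rarb-null values of 13.42, 13.25 and 13.66 against wild-type values of 13.12, 13.08 and 12.73, a difference of 0.47 log2 (unadjusted p = 0.0201, adjusted p = 0.908 in limma) and its 5 other probe sets also had higher Rarb-null means. Fat4, an atypical cadherin gene needed for lymphatic valves in mice, read 8.07 ± 0.08 against 7.76 ± 0.06, a difference of 0.30 log2 (unadjusted p = 0.019, adjusted p = 0.908). Its second probe set was also higher, but over all its probe sets the difference was 0.19 log2 (unadjusted p = 0.0754 in limma). Ephb4, an ephrin receptor gene, differed by 0.21 log2. Gja1 is widely expressed, and these values do not say which cells its signal came from.

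Receptors and co-receptors were higher for 3 of 8 genes, and ligands with the genes that process them for 6 of 8. In the chemokine and trafficking list, 1 of 5 genes had a higher Rarb-null mean. Ccr7, the receptor gene by which immune cells enter lymphatics, was dim, brighter than 21.6% of probe sets. It had Rarb-null values of 5.08, 4.89 and 5.02 against wild-type values of 5.11, 5.22 and 5.11. Its groups did not overlap but nearly met (adjusted p = 0.923 in limma). The chemokine scavenger Ackr4 differed by -0.11 log2. Of the podoplanin pathway, 2 of 5 genes had a higher Rarb-null mean, among them the kinase gene Syk, which differed by 0.23 log2. Clec1b, the gene of the platelet receptor CLEC-2, was lower, and dim at 4.82 ± 0.13 against 4.94 ± 0.23. Syk was 0.027 log2 without wild-type replicate 1, 0.46 log2 without wild-type replicate 2 and 0.096 log2 over all its probe sets.

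Relatives and partners of the 6 genes had 8 higher and 4 lower Rarb-null means. Has2, a hyaluronan synthase gene and so a source of the Lyve1 ligand, had Rarb-null values of 8.06, 8.17 and 7.12 against wild-type values of 5.80, 7.92 and 6.86. Its high arrays were the 3 on which Reln was high, wild-type replicate 1 was the lowest for both, and the groups overlapped (difference 0.93 log2, 95% interval -0.32 to 2.17 log2, adjusted p = 0.911 in limma). It was 0.40 log2 without wild-type replicate 1 and 1.46 log2 without wild-type replicate 2. Has1, another hyaluronan synthase gene, differed by -0.23 log2. Cd44, a hyaluronan receptor related to Lyve1, read 9.81 ± 0.21 against 9.33 ± 0.42, but only 1 of 3 further probe sets was also higher (adjusted p = 0.908), and over all of them the difference was 0.17 log2. The reelin receptors Vldlr and Lrp8 and the adaptor Dab1 differed by -0.017, 0.012 and -0.0039 log2, with 95% intervals within -0.41 to 0.40 log2.

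For each of the 6 genes the genes of most similar array pattern were found by the root mean square (RMS) difference of centred log2 values over the 6 arrays, among genes at least 0.5 times as variable. For Reln these were Mycl (0.09 log2), Spsb4 (0.12) and Cthrc1 (0.14), of 2093 genes compared. For Pdpn they were Tppp3 (0.09 log2), Fcna (0.09) and Anxa3 (0.10). For Lyve1 they were Rhox4b (0.07 log2), Tmc4 (0.09) and a gene listed as X99384 (0.12). The dimmer Mmrn1, Flt4 and Prox1 were closest to Themis, Il10 and Pap (0.04 to 0.07 log2), to Btnl2 and AU015449 (0.02 to 0.03 log2), and to Tm4sf20, Bdkrb1 and Arhgap10 (0.03 to 0.04 log2). Clone and model names were left out. The likeness rests on 6 arrays and is a description of them.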

How the data were processed

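Total RNA of cleared mammary fat pads, hybridised to 6 arrays, was extracted with Trizol and labelled by an Affymetrix protocol, per the labels. The deposited value table holds log2 values that the authors obtained by RMA (per the submitters' processing notes); RMA equalises the distributions of the arrays and compresses differences of dim probe sets. Precision is limited by having 3 arrays in a group. Of 45101 probe sets, 64 controls were left out. In a second table the authors deposited mean log2 levels and log2 fold changes, which matched the value table within 7.4e-06. Each probe set there also has a SAM score and a p-value calculated by the authors, per the file headers, with settings not stated.

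Genotypes were compared with limma 3.58.1 (lmFit, eBayes) in R 4.3.3 over all 45037 probe sets, two-sided, without covariates, with Benjamini-Hochberg adjustment and a threshold of 0.05. Where p-values are given for the groups of 3, they come from this fit. A gene of a list is its brightest probe set among those with 1 symbol, with old symbols updated through RefSeq (GRCm38.p6), whose coordinates are used for promoters only. Besides the 6 genes there were 7 pathway and 9 marker lists. Named genes are Rarb, the 6 genes, the 2 genes of each list with the smallest p, genes tied to a member by role, and the 3 most similar in pattern, of which 1 is not reported here. Of the marker lists, only Plvap, Tek (also in a pathway list), Epcam, Ltb and Tnni2 are given by name under that rule, and the others by count. Glycam1 and Cxcl13 are named outside that rule, and Angpt2 was added beside Angpt1. Members and lists were chosen with earlier results of these data known. The alternatives tried were median centring, another quantile normalization, filters on dim probe sets (the dimmest 40%, or those averaging under 6), array weights, a trended robust prior, a replicate block, each array left out, averaging a gene's probe sets and, added after the data were seen, cyclic loess. The fit was tested on simulated data. Figures used Python 3.11.15 and matplotlib 3.10.9.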

Additional observations from a re-analysis of the deposited data

How the results depend on the processing

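With 0 of the 12 probe sets past the adjusted threshold on all arrays, the count was 0 under every alternative run. Both filters on dim probe sets removed all those of Prox1 and the dimmer ones of Reln and Mmrn1, which were not tested there. Of all probe sets, 0 passed, and 0 to 1 with 1 array left out (1 without Rarb-null replicate 2). At an unadjusted p under 0.05, limma reached 2351 probe sets, 1566 without the dimmest 40% (27022 were then tested) and 1147 to 4418 with 1 array left out: Rarb-null replicate 2 left out gave 1147, wild-type replicate 3 gave 1307 and wild-type replicate 2 gave 4418. Among the 12 it reached 0, and 0 to 1 with 1 array left out, the 1 being Reln (1449465_at) without wild-type replicate 2.

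Signs of values near 0 were unstable. Prox1 (1457432_at) was -0.021 log2 after median centring, Nr2f2 0.059 log2 with array weights, Lrp8 -0.012 log2 after median centring and -0.0023 log2 over all its probe sets, and Dab1 0.0018 log2 after cyclic loess; the cause was not tested. With 1 array left out, Prox1 ran from -0.072 to 0.095 (1457432_at), -0.098 to 0.061 (1437894_at) and -0.084 to 0.063 log2 (1421336_at), Flt4 from -0.12 to 0.12, Lyve1 (1453128_at) from -0.28 to 0.048, Pdpn (1419309_at) from -0.19 to 0.41 and Mmrn1 (1437260_at) from -0.00040 to 0.37 log2. Lyve1 (1429379_at) ran from 0.13 to 0.49 and Reln (1449465_at) from 0.038 to 1.01 log2. Other genes that changed sign were Nr2f2 (-0.27 to 0.17), Foxc2 (-0.20 to 0.0050), Sox18 (-0.024 to 0.23), Nrp2 (-0.091 to 0.14), Vldlr (-0.15 to 0.096), Lrp8 (-0.065 to 0.13), Dab1 (-0.13 to 0.14) and the muscle troponin Tnni2 (-1.41 to 0.68 log2).

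The replicate block reached 3418 probe sets at an unadjusted p under 0.05, with 0 past the adjusted threshold. Whether the shared replicate numbers pair the arrays was not settled. Deviations of same-numbered arrays from their group means correlated at -0.196, 0.447 and 0.292 over all probe sets. The 0.447 of the replicates numbered 2 was the highest of all pairs. Rarb-null replicates 1 and 3 correlated best with wild-type replicates 2 and 1, at 0.385 and 0.325. Deviations within a group of 3 depend on each other, so these correlations cannot decide it. The sources do not say which probe sets rose above background, which limits what can be said of Prox1.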

Other observations

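Glycam1, an endothelial mucin gene of lymph nodes that the lactating mammary gland also makes, had Rarb-null values of 8.43, 5.89 and 6.14 against wild-type values of 5.84, 8.26 and 5.93. It was high on 1 array of each genotype, and both of these were among the 3 arrays highest in Lyve1 (1429379_at). Cxcl13, a chemokine gene of lymph node follicles, was highest on the same arrays, at 10.90 and 11.16, with Rarb-null replicate 2 and wild-type replicate 3 next at 10.49 and 10.53. Both genes were chosen after their values were seen. Ltb, the lymphotoxin beta gene, averaged 5.98 ± 0.12 in Rarb-null against 6.37 ± 0.08 in wild-type arrays, a difference of -0.40 log2 (unadjusted p = 0.00895, adjusted p = 0.908 in limma). Its groups did not overlap, as for 10.6% of all genes. Ltb had the smallest p of the 12 genes of the lymph node list and was brighter than 39.6% of probe sets. Skeletal muscle genes stood apart on wild-type replicate 2, where their list mean was 2.42 log2, and on Rarb-null replicate 3, at 1.14 log2, against -1.34 to -0.50 log2 on the other 4 arrays.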
